A study of Mus musculus with 9 samples.

Results

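The basal layer keratins are Krt5, Krt14 and Krt15, and they were followed across 3 genotypes of newborn mouse esophagus. The members were the genes whose array probes carry one of these 3 names, which gave 3 genes of the 28104 named on the array, each with 1 probe. Keratins build the intermediate filaments of epithelial cells, and a filament needs a type II keratin and a type I keratin as a pair. Krt5 is the type II keratin of the basal layer in stratified epithelia such as skin and esophagus, and Krt14 and Krt15 are type I partners of it. The transcription factor p63, made from Trp63, is known as a regulator of stratified epithelium, and Krt5 and Krt14 are textbook markers of cells that express it. The squamous esophagus rests on a basal layer of this kind, from which the layers above it are renewed.

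The groups, all of the C57BL/6J strain and taken at postnatal day 0, were p63 knockout mice with a Cdx2 transgene (p63 KO;Cdx2, 2 arrays), p63 knockout mice (p63 KO, 3 arrays) and wild type mice (WT, 4 arrays). Cdx2 is a transcription factor of the intestine, and the series names its transgene Villin-Cdx2, after a promoter used for intestinal epithelium. The labels number the p63 KO;Cdx2 replicates out of 3, and nothing in them says whether the RNA of several animals was pooled. Each array carried the sample in Cy5 beside a universal reference RNA from 11 mouse cell lines in Cy3, without dye swaps. Each genotype lay on its own slide and was scanned apart from the others, so no difference below can be told apart from one of slide or scan.

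The arrays had 30021 to 33243 probes that stood clear of background in Cy5, with median sample signals of 309 to 472 intensity units. The number of arrays limits the precision. The cell type label names epithelium, while the RNA came from esophageal tissue, and all 10 smooth muscle and all 10 fibroblast markers were above background on all 9 arrays. In such bulk RNA, fewer cells of a type and less RNA per cell cannot be told apart. The labels conflict for WT replicate 4, whose source names the knockout while its title and genotype name WT, and its keratin signals lay with the other WT arrays. WT replicate 1 stood apart in Krt20, a keratin of gut lining cells, with a log2 sample signal of 14.24 against 9.65 to 10.33 on the other WT arrays. The 2 p63 KO;Cdx2 arrays stood apart from each other in Krt5, with log2 sample signals of 7.40 and 12.01. The log2 ratio of the brightest Trp63 probe was 3.37 and 3.09 in p63 KO;Cdx2, 2.73 to 2.74 in p63 KO and 3.39 to 4.13 in WT, and no array had a Cdx2 probe signal well above background. Another Trp63 probe, dim but well above background in Cy5 on all 9 arrays, went the other way, with log2 ratios of 1.43 and 1.13 in p63 KO;Cdx2, 0.72 to 0.83 in p63 KO and 0.16 to 0.73 in WT. The remaining Trp63 probe stayed near background in both channels of all 9 arrays. The labels do not say which part of Trp63 was deleted, so these probes may lie outside it, and they do not check the genotypes.

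The probes are shown because every keratin value below is read from a single stretch of 60 bases, and related keratins could share sequence. The Krt5 probe lies on chromosome 15 (chr15:101537514-101537573, mm9, minus strand) and holds the letters AATAAA, a polyadenylation signal, 2 bases before its end, which places it at the 3′ end of the transcript. The Krt14 probe spans 606 bases on chromosome 11 (chr11:100064683-100065288, mm9, minus strand) with 60 bases of sequence, so it crosses a splice junction. The Krt15 probe lies on the same chromosome (chr11:99993340-99993399, mm9, minus strand). The printed probes each have 2 reading frames without a stop codon. They run 5′ to 3′ in lower case, with no part marked:
Krt14 probe: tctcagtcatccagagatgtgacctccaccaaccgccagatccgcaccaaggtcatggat
Krt15 probe: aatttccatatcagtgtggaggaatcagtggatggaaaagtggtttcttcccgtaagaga
The longest run of letters shared between 2 of the 3 probes was 7 bases, between Krt5 and Krt14, and it was 5 bases for the other pairs. No probe was compared with whole transcripts or with other keratins, so signal from related keratins was not tested. All 3 probes were well above background in both channels on all 9 arrays, and none was saturated or marked as an outlier.

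The 250 bases before the Krt5 start are shown because p63 belongs to the p53 family and binds a DNA motif of that family. The sequence is from RefSeq (GRCm38.p6, chr15:101712906-101713155, minus strand), and the capitals mark the match to the p53 family half-site, which includes the letters CATG. Promoters of 2 of the 3 members matched by symbol, and the Krt14 window lies inside the annotated gene and is not shown.
Krt5 upstream: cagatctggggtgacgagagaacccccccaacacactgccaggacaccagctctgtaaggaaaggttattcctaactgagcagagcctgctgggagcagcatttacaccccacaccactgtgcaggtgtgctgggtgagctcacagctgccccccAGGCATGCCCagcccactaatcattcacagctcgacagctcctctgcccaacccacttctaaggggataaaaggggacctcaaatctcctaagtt
The half-site starts 95 bases before the start. Searched on both strands, it was found in 7.13% of the 32851 windows of this length, and CATG alone, which it overlaps here, in 53.9% of them. The match is a description of letters, not of binding.

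The comparison of p63 KO with WT asks how the keratins of the basal layer stand in mice labelled p63 knockout. In the sample channel all 3 were lower in p63 KO. Krt5 fell 95.4-fold, the largest fall among 22645 genes, Krt14 fell 10.3-fold and Krt15 fell 5.9-fold. As ratios to the reference RNA all 3 were lower in p63 KO on every array, and only Krt14, 4.67-fold lower and with the lowest p of all genes, passed the test. Values are log2 signals of each channel, after loess within the array and quantile normalization of the average intensities between arrays, or the log2 ratio of sample over reference, after loess alone.

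Krt5, the type II keratin, had log2 sample signals of 7.92, 9.38 and 8.66 in p63 KO, against 15.02, 15.11, 15.34 and 15.44 in WT. The groups lay far apart, and the p63 KO arrays spread more than the WT arrays. The difference was -6.58 (SE 0.92) in limma with an adjusted p of 0.0116, which became 0.0576 without p63 KO replicate 1 and 0.0564 without replicate 3. Before normalization, the net intensity of the spot in p63 KO was on average 1.28% of its WT mean. Its log2 ratios were 0.74, 1.60 and 0.95 in p63 KO, against 2.24, 2.68, 2.71 and 2.68 in WT. The ratios did not overlap either, but limma did not call their difference of -1.48 (SE 0.47, adjusted p = 0.435), whose 95% interval ran from -2.55 to -0.41. This SE is from a spread shared by all 3 genotypes. With only p63 KO and WT in the fit the SE was 0.22 and the limma adjusted p 0.0471.

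Krt14, a type I partner of Krt5, had log2 sample signals of 7.62, 7.57 and 7.52 in p63 KO, against 10.80, 10.73, 11.09 and 11.13 in WT. The 3 p63 KO arrays lay within 0.10 of each other. In limma the sample signal fell by 3.37 (SE 0.13), with an adjusted p of 1.16e-05. Its log2 ratios were -0.99, -1.12 and -1.16 in p63 KO, against 1.02, 1.12, 1.09 and 1.31 in WT. The sample was thus dimmer than the reference on each p63 KO array and brighter on each WT array. The ratio fell by 2.22 (SE 0.10) in limma with an adjusted p of 0.00024.

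Krt15, a type I keratin of basal cells, had log2 sample signals of 14.95, 15.12 and 15.55 in p63 KO, against 17.49, 17.82, 17.93 and 17.82 in WT. The groups did not overlap, and the p63 KO arrays stayed well above background. The sample signal fell by 2.56 (SE 0.16) in limma with an adjusted p of 0.000197. Its net intensity in p63 KO was on average 22.4% of the WT mean. Its log2 ratios were 2.19, 2.02 and 2.16 in p63 KO, against 2.32, 2.59, 2.57 and 2.46 in WT. The ratios came close without overlapping, and their difference of -0.36 (SE 0.10; limma, adjusted p = 0.352) did not pass, with a 95% interval from -0.59 to -0.13.

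In the log ratio limma thus called 1 of 3 members lower in p63 KO, where 0.269% of all genes were called lower. It called 3 of 3 in the sample channel, where 0.985% of all genes were called lower. The arrays of all 3 members did not overlap between p63 KO and WT on either scale. Such a gap below WT was found for 4.57% of genes in the log ratio and for 9.13% in the sample channel.

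**Figure D1:**
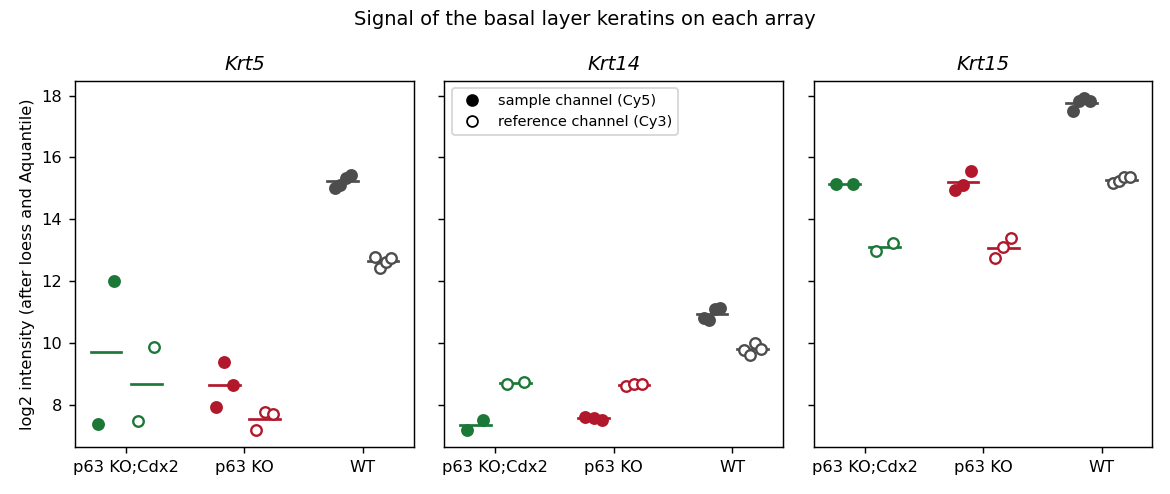
Log2 intensity (vertical axis) of Krt5, Krt14 and Krt15 on each array of p63 KO;Cdx2 (2), p63 KO (3) and WT (4), after loess within the array and quantile normalization of average intensities between arrays. Filled points are the sample channel, open points the reference channel on the same arrays, and lines the group means; both channels are lower outside WT for all 3 genes, and 1 p63 KO;Cdx2 array has a Krt5 sample signal of 12.01.

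**Figure D2:**
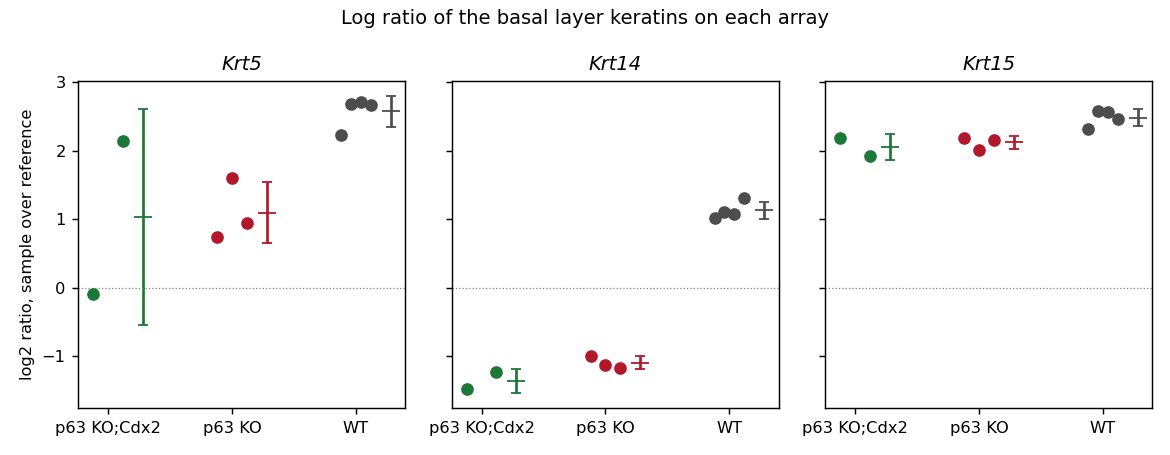
Log2 ratio of sample over reference (vertical axis) of the same genes, with 1 point per array and the group mean ± SD beside the points. Krt14 lies below 0 on all 5 arrays labelled p63 knockout and above 0 on the 4 WT arrays, while Krt15 lies between 1.93 and 2.59 on all 9.

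The gap between the scales lies in the reference channel, which holds the same kind of RNA on every array. Its signal for the 3 keratins was also lower on the p63 KO arrays. For Krt5 the log2 reference signals were 7.18, 7.78 and 7.70 on p63 KO arrays, against 12.78, 12.43, 12.62 and 12.76 on WT arrays. That difference of -5.10 (SE 0.48; limma, adjusted p = 0.00142) was the largest fall of all genes in this channel. For Krt14 they were 8.61, 8.68 and 8.68 on p63 KO arrays, against 9.78, 9.62, 10.01 and 9.82 on WT arrays, a difference of -1.15 (SE 0.08; limma, adjusted p = 0.000461). For Krt15 they were 12.75, 13.10 and 13.39 on p63 KO arrays, against 15.17, 15.24, 15.36 and 15.35 on WT arrays, a difference of -2.20 (SE 0.14; limma, adjusted p = 0.000321). No array of either group overlapped the other in any of the 3.

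All 3 members were thus called lower in the reference channel of p63 KO, where 6.73% of genes were called lower and 17% lay below WT without overlap. A reference signal lower by at least 1 on the log2 scale was rare, at 0.296% of genes. Of the 68 genes whose sample signal was lower by at least 2, 69.1% had such a reference signal. Across all 22645 genes the differences of both channels had r = 0.730, where the points share arrays and normalization and genes are not independent. What moved the reference channel was not tested.

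Before normalization, the net reference signal of Krt15 was 12.4% and 14.0% of the net sample signal on the p63 KO;Cdx2 arrays, 11.0% to 13.3% on the p63 KO arrays and 11.8% to 13.6% on the WT arrays. The share thus stayed within a narrow band while the sample signal itself differed several-fold between the groups. For Krt5 it was 60.2% and 11.4% in p63 KO;Cdx2, 28.1%, 12.1% and 19.5% in p63 KO and 10.3% to 14.5% in WT. The higher shares were on the arrays with the lowest Krt5 sample signal. For Krt14 it was 213% and 143% in p63 KO;Cdx2, 115% to 135% in p63 KO and 25.7% to 31.8% in WT. Its net reference signal had 38.8% of the WT mean in p63 KO;Cdx2 and 39.2% in p63 KO, a smaller change than in the sample, at 6.63% and 9.25%.

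**Figure D3:**
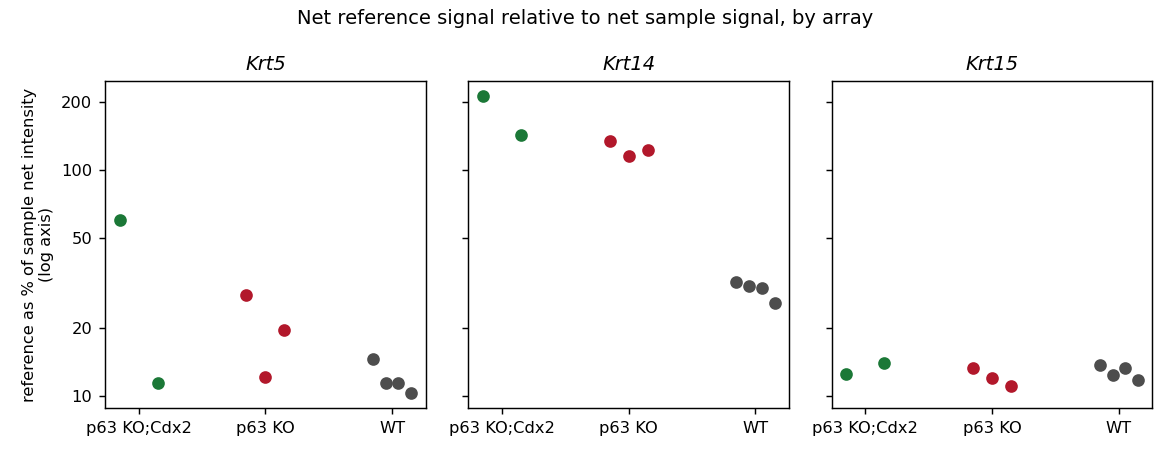
Net intensity of the reference channel as a percentage of that of the sample channel (vertical axis, log scale) for each keratin, with 1 point per array and the genotypes side by side. Krt15 lies between 11.0% and 14.0% on all 9 arrays, whereas Krt14 is above 100% on the arrays labelled p63 knockout and at 25.7% to 31.8% on WT arrays.

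The size of the change was compared between the 3 keratins. Setting the 5 arrays labelled p63 knockout against the 4 WT arrays, 3 pairs of members were compared on each scale with an exact two-sided permutation test, adjusted over the 3 pairs. The smallest p it allows is 0.0159. In the sample channel the change of Krt5 minus that of Krt15 was -3.57 (adjusted p = 0.0239, exact permutation test), and the change of Krt14 minus that of Krt15 was -0.88 (adjusted p = 0.0239, exact permutation test). In both, the values of all 5 knockout arrays lay below those of the 4 WT arrays. For Krt5 minus Krt14 it was -2.70 and did not pass (adjusted p = 0.0794, exact permutation test), with p63 KO;Cdx2 replicate 2, at 4.50, above the WT range of 4.23 to 4.38. Without that array all 3 pairs had an adjusted p of 0.0286 in this test. As ratios, the change of Krt14 minus that of Krt15 was -1.94 (adjusted p = 0.0477, exact permutation test). The pairs with Krt5 did not pass as ratios (adjusted p = 0.0794 each, exact permutation test). There Krt5 minus Krt15 was -1.12, and Krt5 minus Krt14 was 0.82, opposite in sign to the sample channel. Without WT replicate 4 none of these pairs passes after adjustment, and the 3 p63 KO arrays alone cannot pass, since the smallest p is then 0.0571.

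The comparison of p63 KO;Cdx2 with WT adds the transgene to the p63 knockout. Krt14 fell by 2.49 in the log ratio and fell by 3.59 in the sample channel. Krt15 fell by 2.61 in the sample channel, and Krt5 fell by 5.52 there, with 1 array far above the other. Krt14 had log2 sample signals of 7.19 and 7.51 in p63 KO;Cdx2 (WT 10.73 to 11.13) and log2 ratios of -1.48 and -1.23 (WT 1.02 to 1.31). Its limma adjusted p was 1.49e-05 in the sample channel (SE 0.14) and 0.000266 in the log ratio (SE 0.11). Krt15 stood at 15.15 on both p63 KO;Cdx2 arrays in the sample channel, against 17.49 to 17.93 in WT (SE of the difference 0.18; limma, adjusted p = 0.000476). Its ratio differed by -0.42 (SE 0.11; limma, adjusted p = 0.112), which did not pass.

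Krt5 had log2 sample signals of 7.40 and 12.01 in p63 KO;Cdx2, against 15.02 to 15.44 in WT. The lower array lay below all p63 KO arrays and the higher one above them, while both lay below WT. Its sample difference had an SE of 1.05 and a limma adjusted p of 0.039. Leaving out 1 array at a time ended this call in 6 of 9 fits, namely without any 1 WT array (adjusted p 0.0722 to 0.109) or without p63 KO replicate 2 or 3 (adjusted p 0.0587 and 0.0711). The log2 ratios of -0.08 and 2.15 in p63 KO;Cdx2, against 2.24 to 2.71 in WT, differed by -1.55 (SE 0.53; limma, adjusted p = 0.179), which did not pass. Without replicate 2 it was -2.66 and passed (limma, adjusted p = 0.0198). limma thus called 1 of 3 members lower in the log ratio, where 0.971% of genes were called lower, and 3 of 3 in the sample channel, where 1.57% were. In the reference channel it called 3 of 3, where 0.181% of genes were called lower, with differences of -3.98 for Krt5, -1.10 for Krt14 and -2.19 for Krt15. This comparison and that of p63 KO share the WT arrays.

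Between p63 KO;Cdx2 and p63 KO no member passed in the sample channel, the log ratio or the reference channel, and none had an unadjusted p under 0.05 in limma. limma called 0% of genes there in the log ratio (11.4% had an unadjusted p under 0.05), 0.216% in the sample channel and 8.31% in the reference channel. In the sample channel Krt14 differed by -0.22 with a 95% interval from -0.57 to 0.13, and Krt15 by -0.05 with an interval from -0.49 to 0.39. A 2-fold difference thus lay outside both intervals. Krt5 differed by 1.05 with an interval from -1.48 to 3.59, so that wide changes in either direction remained within it. Its difference was 3.36 without p63 KO;Cdx2 replicate 1, where it passed (limma, adjusted p = 0.0364), and -1.25 without replicate 2. The lone array is then assumed to vary like the other groups.

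**Figure D4:**
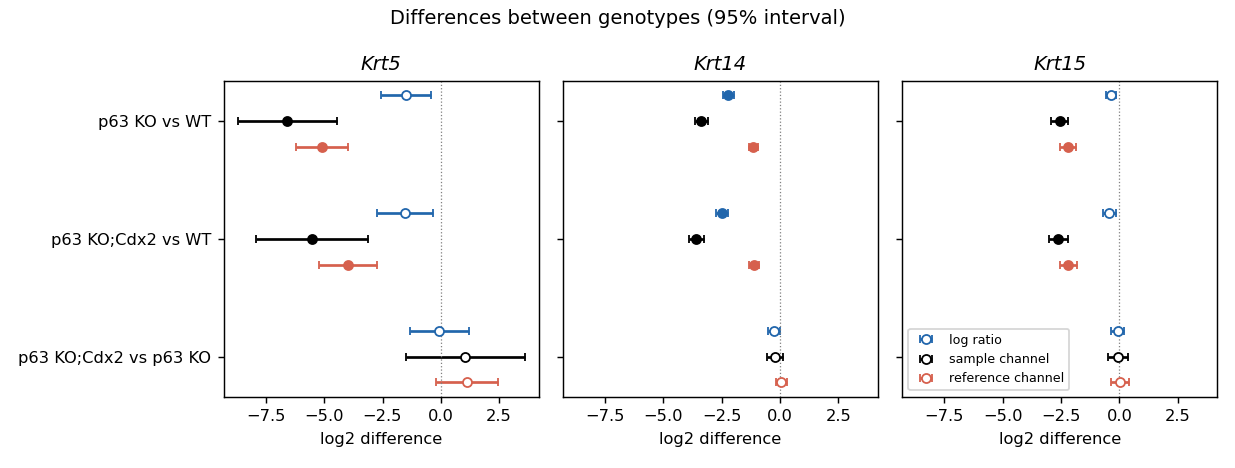
Log2 differences (horizontal axis) of Krt5, Krt14 and Krt15 in 3 comparisons of genotypes on 3 scales, with 95% intervals from limma. Filled points passed at an adjusted p under 0.05; intervals are widest for Krt5, and no point of p63 KO;Cdx2 against p63 KO is filled.

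The Krt5 gap between the p63 KO;Cdx2 arrays was 4.61 on the log2 scale in the sample channel, replicate 2 being higher. It ranked 22nd of 22634 genes by size upward, while 0.941% of genes had a gap above 2 in that same direction. Its reference signals on the same arrays were 7.48 and 9.86. Krt14 differed between these arrays by 0.31 and Krt15 by less than 0.01. Over 33 other basal layer genes the median gap was 0.13, over 13 suprabasal and stress keratins 0.24, over 13 anchor genes 0.39, over 18 squamous differentiation genes 0.50 and over 6 simple keratins 0.54. Single genes of these lists went either way, from 2.74 for the squamous gene Calml3 and 1.99 for the stress keratin Krt17 to -0.51 for the basal cadherin Cdh3 and -1.36 for the simple keratin Krt23, all 4 picked after their values were seen. Among the other cell types the medians ran from -1.56 for 10 skeletal muscle genes to 0.84 for 8 multiciliated cell genes, with 0.60 for enteric neurons and glia and 0.54 for immune cells. The part of cell makeup in the Krt5 gap was not tested.

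Other keratins were set beside the members. The suprabasal and stress keratins mark the layers above the basal layer or the response to wounding, and the simple keratins mark single-layered epithelia. In p63 KO against WT, limma called 5 of 13 suprabasal and stress keratins lower in the log ratio and 6 in the sample channel. None was called higher, and over all genes 0.269% and 0.985% were called lower. Of the 13, 11 and 10 were below 0 on these scales. Their median log ratio difference was -0.87, against 0.02 over all genes. Krt6a, a keratin induced by stress, fell by 1.88 (SE 0.10; limma, adjusted p = 0.000243) in the log ratio, and its sample signal fell by 5.06. Its log2 sample signals in p63 KO were 6.60, 6.56 and 6.97, near the 6.39 to 6.52 of Krt76. Krt76 was well above background on 0 of 3 p63 KO arrays. Krt6a was well above background on 1 of 2 p63 KO;Cdx2 and 3 of 3 p63 KO arrays, so its sizes rest on signals near background. Its relative Krt6b, also called, was well above background on 0 of 2 p63 KO;Cdx2 arrays, 1 of 3 p63 KO arrays and 4 of 4 WT arrays, so no size is given for p63 KO. In p63 KO;Cdx2 its sample signal was at least 20.7-fold lower than in WT. Krt4, the type II keratin of the esophageal upper layers, fell by 0.94 (SE 0.10; limma, adjusted p = 0.00803) in the log ratio, and its sample signal fell by 3.82. Krt78 fell by 3.13 in the sample channel. In p63 KO;Cdx2, 6 of the 13 were called lower in the log ratio and 7 in the sample channel. Over all genes 0.971% and 1.57% were.

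Of 6 simple keratins limma called 0 in the log ratio in p63 KO;Cdx2 and 0 in p63 KO, with 3 at an unadjusted p under 0.05 in each. Such a p was found for 18.1% and 7.79% of all genes. In p63 KO all 6 were below 0 in the sample channel (median -1.03) and 5 in the log ratio (median -0.63). In p63 KO;Cdx2, 5 were below 0 on each scale, with medians of -0.79 in the sample channel and -0.43 in the log ratio. In the sample channel Krt7 fell by 1.17 (SE 0.18; limma, adjusted p = 0.0199) and Krt23 fell by 2.59 (SE 0.41; limma, adjusted p = 0.0213) in p63 KO. In p63 KO;Cdx2 their differences of -1.10 and -2.35 passed as well. These were the 2 calls in each group, where 1.57% of all genes were called lower in p63 KO;Cdx2 and 0.985% in p63 KO. Without WT replicate 1 there were 0 calls in p63 KO;Cdx2 and 1 in p63 KO, without WT replicate 4 there were 0 in either, and without p63 KO;Cdx2 replicate 2 there were 0 in p63 KO;Cdx2. Krt8 and Krt18 are the common keratin pair of simple epithelia. Krt8 had log2 ratios of -0.81 and 0.56 in p63 KO;Cdx2, -0.59, -0.05 and 0.14 in p63 KO and 1.57, -0.02, -0.28 and -0.18 in WT. Krt18 had log2 ratios of -1.07 and 0.58 in p63 KO;Cdx2, -0.60, -0.31 and -0.28 in p63 KO and 0.60, -0.50, -0.97 and -0.81 in WT. WT replicate 1 was the highest WT array in both genes, far above the other WT arrays, and the groups overlapped. Krt19 was not called on either scale. Its log2 ratios were 0.56 and 1.27 in p63 KO;Cdx2 and 0.94, 1.36 and 1.37 in p63 KO, all below the 1.83 to 2.50 of WT.

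**Figure D5:**
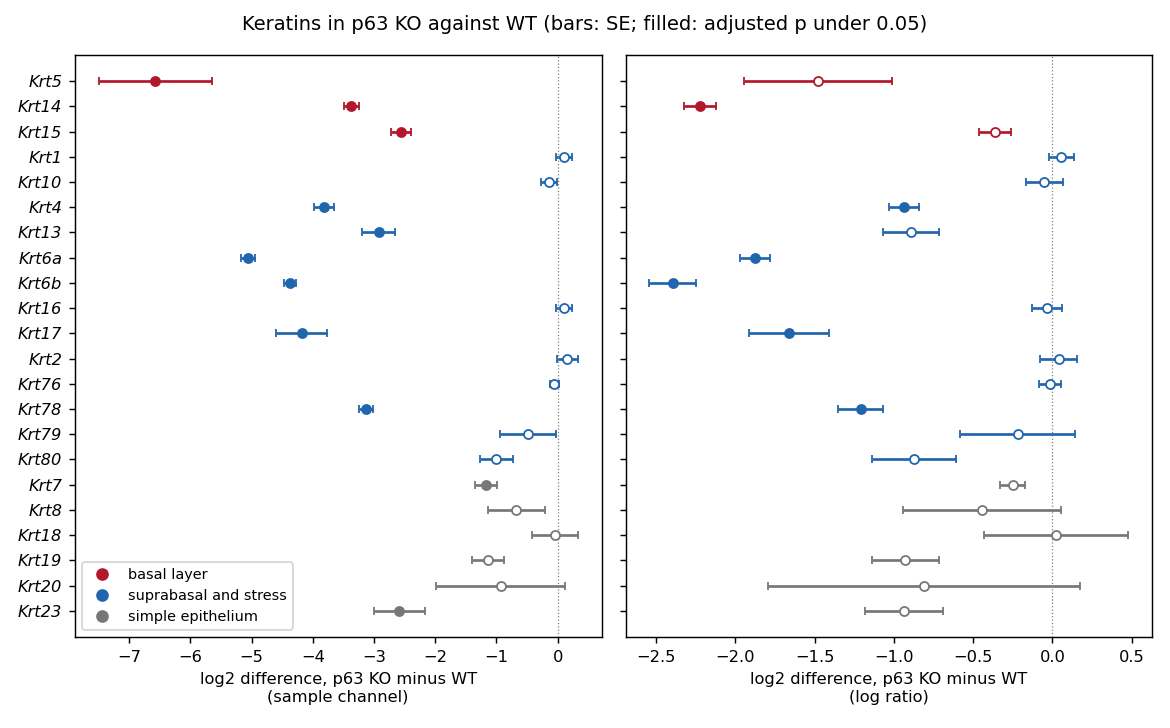
Log2 difference of p63 KO minus WT (horizontal axes, sample channel and log ratio) for the 22 keratins tested, with SE bars, coloured by group. Filled points passed in limma; Krt5, Krt14 and Krt15 are all filled in the sample channel, and among them only Krt14 is filled in the log ratio.

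There were 33 tested basal layer genes besides these keratins, Trp63 among them. In p63 KO limma called 5 of them lower in the log ratio and 10 in the sample channel, and none higher. Without Trp63, the altered gene, these were 5 and 9 of 32. Over all genes 0.269% and 0.985% were called lower. Of the 33, 27 and 28 were below 0 on these scales. Their median log ratio difference was -0.15. Wnt10a, a Wnt ligand, fell by 1.39 (SE 0.13; limma, adjusted p = 0.00621) in the log ratio. Col7a1, the collagen of anchoring fibrils, fell by 1.71 (SE 0.18; limma, adjusted p = 0.00878). Col17a1, a collagen of hemidesmosomes, the plaques that tie Krt5 and Krt14 filaments to the basement membrane, fell by 1.37 (SE 0.17; limma, adjusted p = 0.0156), and its sample signal fell by 2.91. Its log2 sample signals were 11.47, 10.80 and 11.07 in p63 KO, against 13.73 to 14.17 in WT. Pitx1, a transcription factor, fell by 2.45 in the sample channel (SE 0.20; limma, adjusted p = 0.000805). Its reference signal differed by -2.16, and its log ratio, with a difference of -0.30 (limma, adjusted p = 0.542), did not pass. Of the 33, 6 were called lower in p63 KO;Cdx2 in the log ratio and 9 in the sample channel. Without WT replicate 4 the count of 5 in p63 KO was 2.

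There were 13 genes that anchor keratin filaments at desmosomes or hemidesmosomes. In p63 KO limma called 4 of them lower in the log ratio and 8 in the sample channel, and none higher. Over all genes 0.269% and 0.985% were called lower. Of the 13, 11 and 10 were below 0 on these scales. Pkp1, a desmosomal plaque protein, had log2 ratios of -0.90, -0.72 and -0.33 in p63 KO, against 2.25, 2.55, 2.24 and 2.50 in WT. It fell by 3.04 (SE 0.16; limma, adjusted p = 0.000243) in the log ratio, and its sample signal fell by 4.41. Pkp3, of the same plaque, fell by 0.89 (SE 0.09; limma, adjusted p = 0.00758). Evpl, envoplakin of the cornified envelope, fell by 2.92 in the sample channel (SE 0.16; limma, adjusted p = 0.000105). Its log2 reference signals were also lower, at 10.08, 10.49 and 10.48 in p63 KO against 12.71 to 13.00 in WT. Its log2 ratios were 2.03, 2.09 and 2.02 in p63 KO, against 2.30 to 2.62 in WT. Without WT replicate 4 the 4 calls in the log ratio were 2. Of the 13, 6 were called lower in p63 KO;Cdx2 in the log ratio and 7 in the sample channel. The anchor genes Plec, Dst, Col17a1 and Itgb4 stand in the basal layer list as well.

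None of the smooth muscle, skeletal muscle, fibroblast, endothelial, immune, enteric neuron and glia or multiciliated cell markers passed in p63 KO against WT in the sample channel or the log ratio (0 of 60 by limma, with 11 and 6 at an unadjusted p under 0.05). Such a p was found for 16% and 7.79% of all genes on these scales. Their median sample differences in p63 KO ranged from -0.48 for 10 smooth muscle genes to 0.35 for 10 skeletal muscle genes. All 10 smooth muscle genes were below 0 in the sample channel in p63 KO, and 8 in the log ratio. On each scale 5 of the 10 had an unadjusted p under 0.05 in limma. The summed log2 signal of the smooth muscle list was 18.11 to 18.40 in p63 KO;Cdx2, 18.27 to 18.38 in p63 KO and 18.59 to 19.43 in WT. Between p63 KO;Cdx2 and WT, limma called 1 of the 60 in the log ratio and 0 in the sample channel, with 14 and 15 at an unadjusted p under 0.05. Such a p was found there for 18.1% and 20.9% of all genes. The call was the fibroblast gene Col6a1, a collagen, with a log ratio difference of -0.69 (SE 0.13; limma, adjusted p = 0.0475). All 10 smooth muscle genes were below 0 on both scales there, with medians of -0.36 in the log ratio and -0.64 in the sample channel, and so were all 10 fibroblast genes, with medians of -0.52 and -0.33. The part of these differences in those of the keratins was not tested.

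Over the 9 arrays, the genes whose log ratio was most like that of each member were named by Pearson r among 15672 genes. The arrays share the genotype steps, and the values are descriptions. For Krt14 they were Trim29 (0.997), Duoxa1 (0.993) and Krt6a (0.993). Trim29 is a tripartite motif protein of stratified epithelium, and Duoxa1 is a maturation factor of a dual oxidase. Trim29 had log2 ratios of 0.27 and 0.31 in p63 KO;Cdx2, 0.48 to 0.68 in p63 KO and 2.43 to 2.89 in WT. For Krt5 they were Cast (0.953), the inhibitor of calpains, Vav3 (0.946), an exchange factor of small GTPases, and Krt17 (0.943). Krt17 had log2 ratios of 0.20 and 1.34 in p63 KO;Cdx2, 0.26 to 0.73 in p63 KO and 1.99 to 2.34 in WT, with the higher p63 KO;Cdx2 value on the same array as that of Krt5. For Krt15 they were Tnfaip2 (0.974), Hbegf (0.970), a growth factor that binds the EGF receptor, and Pitx1 (0.942). Among the members themselves r was 0.815 for Krt5 and Krt14, 0.529 for Krt5 and Krt15 and 0.867 for Krt14 and Krt15 in the log ratio, and 0.936, 0.924 and 0.988 in the sample channel.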

How the data were processed

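Per the file headers, Agilent Feature Extraction 10.7.3.1 wrote the deposited files, which give per spot and channel a mean intensity and a local background median, and processed intensities. Version 9.1 stands in the submitters' processing notes. The deposited series table holds log2 ratios of Cy5 over Cy3, equal to the software's processed ratio. Background was corrected by normexp with offset 50, loess was applied to the log ratios of each array, and for channel signals the average intensities were then quantile normalized between arrays (Aquantile). Control and outlier spots were left out. A probe was kept where its Cy5 signal was well above background on 2 or more arrays (33750 of 41174), and the brightest probe of each gene gave 22648 genes, with names updated through RefSeq. limma 3.58.1 (R 4.3.3) fitted the 3 genotypes in 1 model, with eBayes and Benjamini-Hochberg adjustment at 0.05 over all genes. The fits were checked on simulated data. Members, lists and alternatives were chosen with earlier results of these data known. Named genes were the members, the altered genes and the 3 genes most like each member. Each list, direction and comparison gave up to 3 passing genes with the lowest adjusted p. Krt8, Krt18, Krt19 and Krt20 were named outside this rule, and others are said to be picked later. Nothing says that arrays of a group came from separate litters, so p-values measure the spread between these samples.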

Additional observations from a re-analysis of the deposited data

Results flagged for a closer look

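Within the 4 WT arrays, the Krt5 log2 ratio of WT replicate 1 was 2.24, while the others lay between 2.68 and 2.71, a gap of 0.928 of the whole range. The reference signal of the brightest Trp63 probe was 8.92 on WT replicate 3, with the others between 8.03 and 8.07, a gap of 0.954 of the range. These were the arrays far from the rest among 12 groups of values tested, and chance marks about 1 in 20 such groups.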

How the results depend on the processing

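Krt14 was called lower on both scales, and Krt15 in the sample channel, in both comparisons with WT under every alternative tried, the omission of each array included. Krt5 and the counts over all genes moved. Nothing in the labels ties a replicate number to a shared litter or day, and same-numbered arrays deviated from their group means with r of -0.13 to 0.19 in the log ratio and -0.09 to 0.25 in the sample channel. With the replicate block Krt5 in the sample channel stood at -6.50 in p63 KO (limma, adjusted p = 0.0858) and -5.41 in p63 KO;Cdx2 (adjusted p = 0.2) against WT, and Krt15 turned to 0.081 between p63 KO;Cdx2 and p63 KO. The block left 8 genes in p63 KO;Cdx2 and 9 in p63 KO against WT in the log ratio, and 35 and 75 in the sample channel, with 0 between p63 KO;Cdx2 and p63 KO. The cause of these shifts was not tested.

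In the log ratio the counts of called genes in p63 KO against WT were 74 in the fit reported and 133 with the scanner software's processed signals or the authors' table, 183 without background subtraction, 218 with array weights and 115 with only the groups compared. Of these, 61 were lower and 13 higher as reported, 123 and 10 with the processed signals or the authors' table, and 75 and 40 with only the groups compared. In p63 KO;Cdx2 against WT they were 319 as reported and 803 without background subtraction, 163 with median centring, 541 with a trended and robust prior and 50 with only the groups compared. Between p63 KO;Cdx2 and p63 KO they were 0 as reported, 4 with the processed signals or the authors' table and 1 with the trended prior. In the sample channel array weights gave 985 in p63 KO against WT (400 as reported) and 32 between p63 KO;Cdx2 and p63 KO (49 as reported), where every probe by itself gave 90. Only the groups compared gave 281 in p63 KO;Cdx2 against WT (557 as reported) and 0 against p63 KO.

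With only the groups compared, Krt5 passed in the log ratio in p63 KO (-1.48, adjusted p = 0.0471) and was not called in the sample channel in p63 KO;Cdx2 (-5.52, adjusted p = 0.089). Processed Cy5 signals gave -6.24 there (adjusted p = 0.0581). Between p63 KO;Cdx2 and p63 KO, Krt15 turned to 0.035 with scaled ratios and 0.0072 with quantile normalization of Cy5 alone. In p63 KO alone the member differences were -1.86 for Krt14 minus Krt15 as ratios, and in the sample channel -4.02 for Krt5 minus Krt15 and -0.81 for Krt14 minus Krt15, and this design cannot pass.

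Leaving out 1 array at a time gave these ranges. Counts in the log ratio were 58 to 370 in p63 KO;Cdx2 against WT, 21 to 121 in p63 KO against WT and 0 to 36 between p63 KO;Cdx2 and p63 KO. In the sample channel they were 174 to 675, 187 to 458 and 6 to 159, and in the reference channel 33 to 88, 1093 to 2998 and 420 to 2234, in the same order. Krt5 ranged from -1.73 to -1.30 in p63 KO against WT in the log ratio, passing without either p63 KO;Cdx2 array (adjusted p = 0.0471), and from -6.94 to -6.21 in the sample channel. In p63 KO;Cdx2 against WT it ranged from -2.66 to -0.43, -7.83 to -3.22 and -5.17 to -2.79 in the log ratio, sample channel and reference channel, and its reference call was lost in 7 of 9 fits. Against p63 KO it ranged from -1.18 to 1.05, -1.25 to 3.36 and -0.070 to 2.31, and Krt15 from -0.20 to 0.068, -0.18 to 0.12 and -0.15 to 0.17. Member differences without p63 KO;Cdx2 replicate 2 or WT replicate 4, chosen after seeing the data, were -4.32 to -3.52 for Krt5 minus Krt15, -3.42 to -2.69 for Krt5 minus Krt14 and -0.89 to -0.83 for Krt14 minus Krt15 in the sample channel, and -1.43 to -1.08 for Krt5 minus Krt15 and -1.98 to -1.88 for Krt14 minus Krt15 as ratios. With either of these arrays left out, the member difference of Krt5 minus Krt14 as ratios was 0.55 to 0.80. Signal over background limits Krt6b to a bound in p63 KO;Cdx2.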
